A study of Drosophila melanogaster with 3 samples.

Results

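Translation initiation factor genes were taken as every protein-coding gene of the Ensembl annotation of Drosophila melanogaster whose symbol starts with eIF, a rule that uses the gene symbol and no peak value. This gave 44 genes of the 13945 protein-coding genes on the 6 chromosome arms of the genome. Their start sites were searched in chromatin immunoprecipitation followed by sequencing (ChIP-seq) of CG5180, a gene still known by its annotation number. The embryos came from 1 transgenic line that stably carries CG5180 with eGFP, a green fluorescent protein, fused to its C terminus, and the precipitating antibody recognised GFP. Whole embryos aged 0 to 16 h, of both sexes pooled, gave the 3 biological replicates of the only group, so the peaks mix all embryonic cell types and stages. No untagged line and no other GFP line was analysed here, so peaks of CG5180 and peaks found in any GFP precipitation cannot be told apart.

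The authors deposited a list of 30000 peaks for each replicate and a pooled list of 30000 peaks. They also deposited a list of 5400 peaks kept by the irreproducible discovery rate (IDR), a measure of how repeatable peak ranks are between replicates. Ranks 1 to 5400 of the pooled list are exactly the IDR peaks. A single IDR peak therefore need not rank alike, or be found, in every replicate. Each peak has a signal value, a score of the authors' peak caller, which is comparable within a list only, so each signal value is given with its rank in its own list (rank 1 is the strongest). The number of reads behind the lists is unknown. A gene is called bound where the summit of an IDR peak lies within 250 bp of any of its annotated transcription start sites (TSSs), and a distance with a minus sign is upstream of the TSS.

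Initiation factors bring the ribosome to the start codon of a messenger RNA (mRNA). The cap-binding protein eIF4E, the scaffold eIF4G and the helicase eIF4A recruit the mRNA, eIF2 brings the initiator tRNA, eIF3 holds the small ribosomal subunit, and eIF5, eIF5B and eIF6 act on start-codon commitment and on the joining or supply of the large subunit. The genes are needed in nearly every cell, and several Drosophila factors have paralogs with expression mainly in the testis.

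Of the 44 genes, 4 were bound (9.09%, Wilson 95% interval 3.59% to 21.2%), against 12.0% of all protein-coding genes, so the share of initiation factor genes was near the background. The bound genes were eIF4A, the RNA helicase of the cap-binding complex, eIF6, which keeps the large ribosomal subunit from joining too early, eIF4EHP, a cap-binding relative of eIF4E that represses translation, and eIF3h, a subunit of eIF3. Within 1000 bp, 8 genes had an IDR summit (18.2%), against 18.1% of all protein-coding genes. The other 4 were eIF1, eIF2Bbeta, eIF2beta and eIF4E7. At the other end, 19 genes had no summit within 1000 bp of a TSS in any of the 5 lists (43.2%, Wilson 95% interval 29.7% to 57.8%), against 41.3% of all protein-coding genes, which is again near the background.

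The bases under the summits of the bound genes eIF4A, eIF4EHP and eIF3h and of eIF1 are shown so that these peaks can be compared by sequence (that of eIF6 is not shown here), in reference bases of genome release 6 written in the direction of transcription of the named gene. Capitals mark a match, on either strand, to the core promoter element TATAAA or to TATCGATA, the site of the factor DREF, and a stretch with more than 30 untranslated exon bases among its 150 was kept to 30 bases. The eIF4A stretch is chr2L:5982619-5982648 on the + strand, the eIF4EHP stretch is chr3R:24109086-24109235 on the - strand, the eIF3h stretch is chr2L:5052688-5052717 on the - strand, and the eIF1 stretch is chr3L:3222946-3223095 on the + strand.
eIF4A: tcgcagagcgcatcgcagcacaaacgtaac
eIF4EHP: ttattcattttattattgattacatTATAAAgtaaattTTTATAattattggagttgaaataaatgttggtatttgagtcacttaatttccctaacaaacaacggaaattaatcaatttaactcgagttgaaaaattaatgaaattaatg
eIF3h: cgtcatgctgctcgcaccgaggattcggat
eIF1: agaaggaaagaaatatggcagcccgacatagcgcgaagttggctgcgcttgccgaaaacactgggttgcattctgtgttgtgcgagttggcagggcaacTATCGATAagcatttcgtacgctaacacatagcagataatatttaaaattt
No motif of those sought was found in more than 1 of the 4 stretches, 2 of which are only 30 bases long. GC content was 20.7% in the eIF4EHP stretch and 44.7% in the eIF1 stretch, while the 30-base stretches of eIF4A and eIF3h had 56.7% and 60.0%. The eIF4EHP stretch holds TATAAA at 2 places, once on each strand, and TATAAA occurs in 20.4% of the 150-base stretches centred on IDR summits. TATCGATA at the eIF1 summit is rarer, found in 0.704% of those stretches. A match describes the letters and does not show that a factor was there.

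eIF4A had the strongest peak of the bound genes, and it sat at an internal start site. The gene (FBgn0001942) spans 5981764 to 5985909 on the + strand of chromosome 2L and has 3 annotated TSSs. The summit lay 40 bp downstream of the TSS at 5982594, which is 830 bp from the first TSS of the gene, in an untranslated exon. The peak (5982376 to 5982842) had a signal value of 1570 and rank 378 in the pooled list. Signal values were 680 in replicate 1 (rank 366), 490 in replicate 2 (rank 456) and 402 in replicate 3 (rank 381), a mean rank of 401 ± 48.2 (SD, n = 3). The 3 replicates placed the summit at +38, +34 and +31 bp, so they agreed in both position and order.

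The same eIF4A interval carries a second IDR summit 243 bp downstream of that TSS, just inside the 250 bp window and in an intron. Its signal value was 455 (rank 1673), and its replicate ranks were 1328, 1353 and 3229. The first TSS of eIF4A had only a weak peak, 61 bp downstream, with a signal value of 89.2 (rank 13225), which was found in replicates 1 and 3 and not in replicate 2. A further IDR peak 908 bp upstream of the gene (signal value 205, rank 4653) lay 162 bp from a TSS of chic, which encodes the actin-binding protein profilin. The middle TSS, at 5982363, lies at -231 bp from the one at 5982594 and had no IDR summit within 250 bp. The interval of the strongest peak begins at 5982376, just downstream of that middle TSS. Of the 3 start sites of eIF4A, 1 therefore had IDR summits within 250 bp, a count that rests on the window and does not separate the 2 inner start sites.

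eIF6 was bound upstream of its single TSS. The gene (FBgn0034915) spans 23849246 to 23850301 on the - strand of chromosome 2R. The summit lay at -104 bp, and the peak (23850257 to 23850559) had a signal value of 1397 and rank 420. Signal values were 502, 504 and 405 in replicates 1, 2 and 3, at ranks 483, 433 and 377 (mean 431 ± 53.0, SD, n = 3), with summits at -92, -87 and -125 bp. The replicates gave it like ranks and like positions. eIF6 lies inside an intron of ytr, and the antisense RNA gene asRNA:CR45928 starts 75 bp from the summit, closer than eIF6 itself, so the peak cannot be assigned to 1 of them.

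eIF4EHP was bound at a promoter it shares with a gene of the opposite strand. eIF4EHP competes for capped mRNAs without binding eIF4G, and in the early Drosophila embryo it is known as a repressor of caudal and hunchback mRNAs. The gene (FBgn0053100) spans 24063077 to 24108960 on the - strand of chromosome 3R and has 1 TSS. The summit lay at -201 bp, and the peak (24108969 to 24109390) had a signal value of 1227 and rank 481. Signal values were 446, 479 and 327 in replicates 1, 2 and 3, at ranks 564, 473 and 472 (mean 503 ± 52.8, SD, n = 3). The summit stood at -202 and -211 bp in replicates 1 and 2 and at -277 bp in replicate 3, which put it outside the 250 bp window there. The TSS of CG18428 is 175 bp from the pooled summit, nearer than that of eIF4EHP, and the peak interval ends before the eIF4EHP TSS. Another IDR peak (signal value 210, rank 4494) lay in an intron of the gene, 2505 bp from its TSS and 692 bp from a TSS of Syx1A, which encodes a syntaxin of the synaptic vesicle machinery.

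eIF3h had the weakest peaks of the bound genes, and its IDR peaks also sat at an internal start site. The gene (FBgn0022023) spans 5051193 to 5053094 on the - strand of chromosome 2L and has 2 TSSs, 314 bp apart. The summit lay 77 bp downstream of the inner TSS, in coding sequence, and the peak (5052471 to 5052934) had a signal value of 293 and rank 2965. Within 250 bp the signal values were 86.1, 130 and 85.9 in replicates 1, 2 and 3, at ranks 4553, 2473 and 2604 (mean 3210 ± 1165, SD, n = 3). A stronger IDR summit in an intron, 276 bp downstream and so just outside the window, had a signal value of 389 (rank 2046), with replicate ranks of 2148, 2084 and 1861. The spread of ranks was wider at the inner summit, where replicate 1 stood apart. The TSS of senju, on the opposite strand, is 140 bp from the inner summit, so that peak is shared too.

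**Figure D1:**
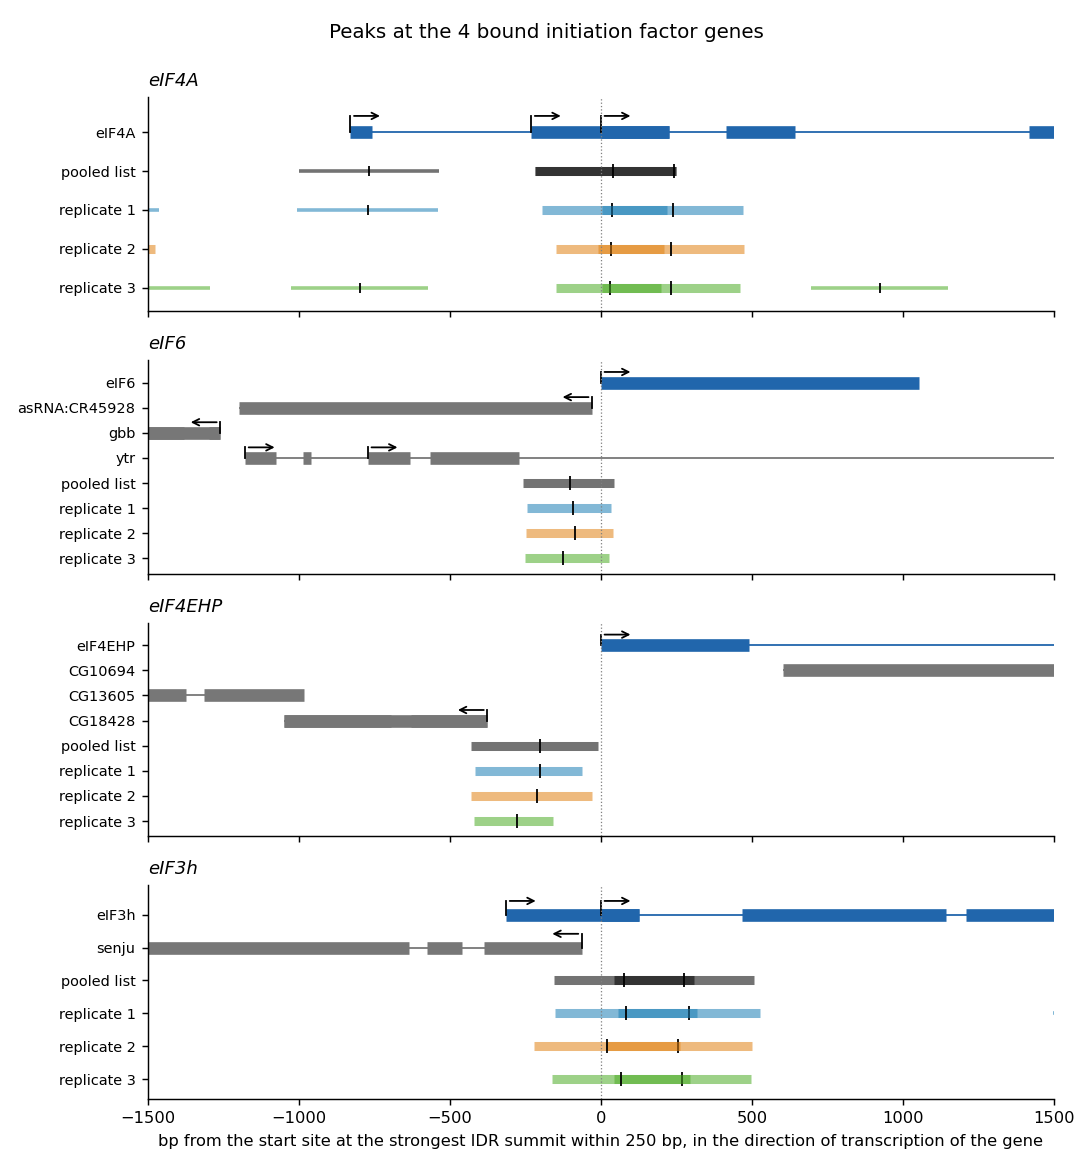
Peaks at the 4 bound initiation factor genes, drawn from 1500 bp upstream to 1500 bp downstream of the start site at the strongest IDR summit within 250 bp (x axis, bp, in the direction of transcription). Blue and grey boxes are exons of the gene and of its neighbours, arrows are start sites, thick bars are peaks among the 5400 strongest of a list, thin bars are weaker peaks, and ticks are summits. A peak of each replicate lies at each gene, and the summits at eIF4EHP and eIF6 lie upstream of the start site while those at eIF4A and eIF3h nearest to it lie downstream.

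The peaks at eIF4A, eIF6 and eIF4EHP were strong for promoter peaks of this series. The bound initiation factor genes had a median rank of 450 and a median signal value of 1312 (n = 4, range 293 to 1570), against a median rank of 2142 and a median signal value of 373 over all 1675 bound protein-coding genes. With 4 genes these medians are a description and no test was made. In the pooled list the ranks of eIF4A, eIF6 and eIF4EHP lay between 378 and 481, and eIF3h, at rank 2965, stood below the median of all bound genes.

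Among the 4 genes with an IDR summit beyond 250 bp and within 1000 bp, both eIF1 and eIF2Bbeta had theirs at the start site of a neighbour. eIF2Bbeta (FBgn0024996, X, 2704571 to 2706217) encodes a subunit of eIF2B, which recharges eIF2 with GTP. Its summit at -681 bp had the largest signal value near any initiation factor gene, 3952 (rank 197), and the replicate signal values were 1510, 1476 and 986 at ranks 210, 192 and 200 (mean 201 ± 9.02, SD, n = 3). The summit is 38 bp from the TSS of Ugalt, which encodes a transporter of UDP-galactose. No list held a summit within 250 bp of eIF2Bbeta itself.

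eIF1 (FBgn0035423, 3L, 3223341 to 3224650) encodes the small factor that guards start-codon choice. Its IDR summit at -320 bp had a signal value of 648 (rank 1059) and is 61 bp from the TSS of RpL28, a ribosomal protein gene whose TSS lies 381 bp away on the opposite strand. Within 1000 bp, replicate 2 had a signal value of 203 (rank 1375) and replicate 3 one of 165 (rank 1084), and replicate 1 had no summit. Closer to eIF1, weaker summits stood at -77 bp in replicate 2 (signal value 80.6, rank 4681) and at -117 bp in replicate 3 (83.2, rank 2700). The pooled list had no summit within 250 bp of eIF1.

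The IDR summits of eIF4E7 and eIF2beta had no nearer protein-coding start site than those of the named genes. eIF4E7 (FBgn0040368, X, 1158599 to 1162389), one of the eIF4E paralogs, had its summit at -826 bp with a signal value of 880 (rank 726), and replicate signal values of 323, 283 and 280 at ranks 827, 873 and 559 (mean 753 ± 170, SD, n = 3). eIF2beta (FBgn0004926, 3L, 12525093 to 12526731), a subunit of the factor that carries the initiator tRNA, had its summit at -307 bp with a signal value of 195 (rank 4959). Its replicate signal values were 49.8, 91.8 and 46.8 at ranks 9660, 3953 and 5967, so that summit was among the 5400 strongest in replicate 2 alone. Weaker pooled summits of eIF2beta stood at +24 bp (112, rank 9923) and +268 bp (61.9, rank 20876).

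In the pooled list, 9 of the 44 genes had a summit within 250 bp of a TSS (20.5%, Wilson 95% interval 11.2% to 34.5%), against 28.2% of all protein-coding genes. Within 1000 bp there were 13 (29.5%, 18.2% to 44.2%), against 41.2%. Both shares were below the background, which lay inside the first interval and inside the second. With 44 genes the intervals are wide, and the differences were not tested. The 5 genes with a pooled summit within 250 bp that were not bound were eIF2beta, described above, eIF2D, eIF3a, eIF4E1 and eIF3k.

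eIF2D and eIF3a stood just below the IDR threshold. The pooled peak of rank 5400, the last IDR peak, and that of rank 5401 both had a signal value of 182, and both genes had 181. eIF2D (FBgn0041588), which can deliver tRNA to the ribosome without GTP, ranked 5434, with its summit at -161 bp and replicate signal values of 58.3, 60.4 and 70.0 at ranks 7676, 6931 and 3426. eIF3a (FBgn0037249), the largest eIF3 subunit, ranked 5467, with its summit at -42 bp and replicate signal values of 50.2, 62.7 and 64.5 at ranks 9516, 6584 and 3814. Replicate 3 ranked both genes inside its 5400 strongest peaks, and replicates 1 and 2 ranked neither there. The eIF3a summit is 28 bp from the TSS of CG1074, which starts on the opposite strand 70 bp from the eIF3a TSS, so that weak peak is shared. The summit of eIF2D in replicate 2 was at -266 bp, outside the window.

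eIF4E1 (FBgn0015218), the main cap-binding protein, had a pooled summit at +127 bp with a signal value of 100 (rank 11429). It was found in replicates 2 and 3 at signal values of 61.3 and 23.9 (ranks 6789 and 15275), and not in replicate 1. eIF3k (FBgn0034654), a subunit of eIF3, had one at -16 bp with a signal value of 84.4 (rank 14180), found within 250 bp in replicate 1 alone (60.2, rank 7335). eIF4E4, another eIF4E paralog, had a pooled summit at -567 bp and none nearer, with a signal value of 47.8 (rank 28388). None of these 3 genes had a summit in all 3 replicate lists within 1000 bp.

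**Figure D2:**
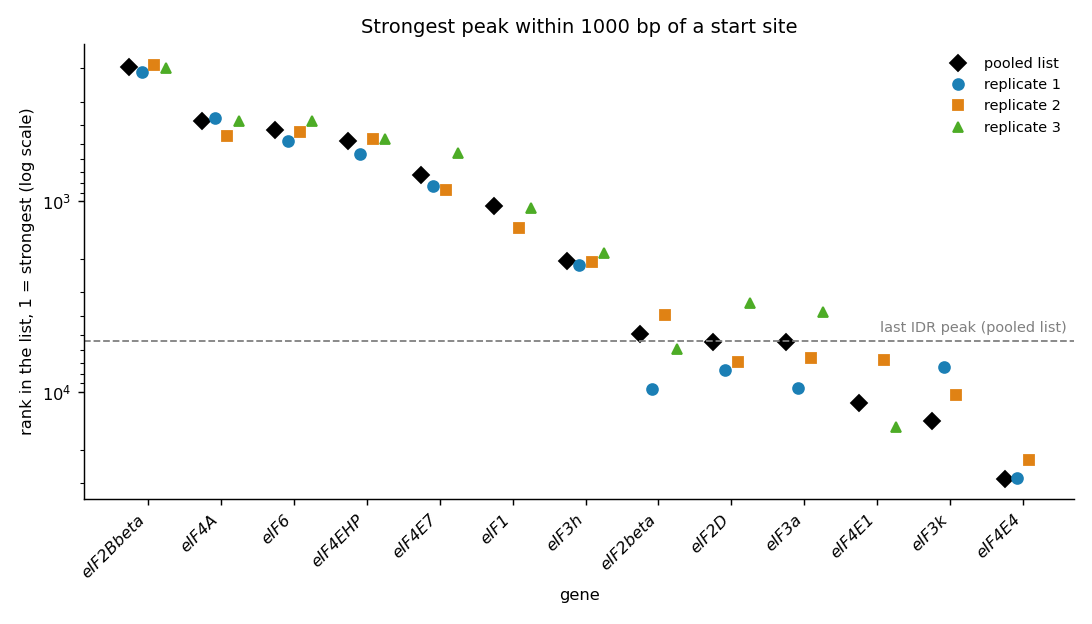
Rank of the strongest peak within 1000 bp of a start site for the 13 initiation factor genes with such a peak in the pooled list (y axis, log scale, rank 1 at the top), in the pooled list and in each replicate list. The ranks of the replicates lie close together from eIF2Bbeta to eIF3h and spread out near and below the dashed line, which marks the last IDR peak at rank 5400 of the pooled list; a missing symbol means that the list has no summit there.

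**Figure D3:**
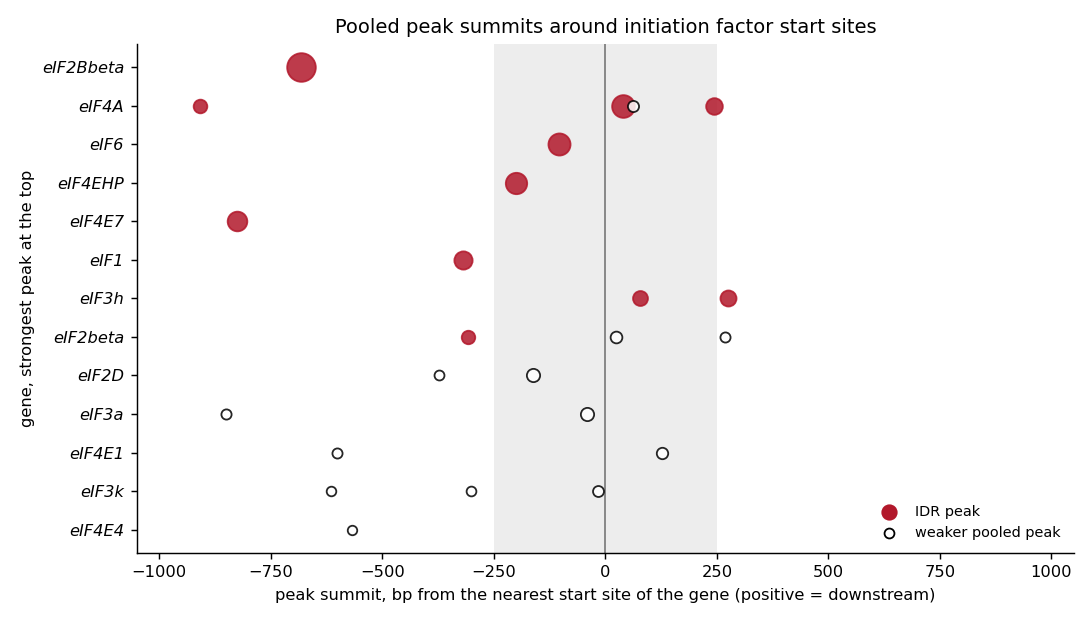
Position of every pooled summit within 1000 bp of a start site of the same 13 genes (x axis, bp from the nearest start site of that gene, positive is downstream), with symbol area growing with the signal value. Filled circles are IDR peaks, open circles are weaker pooled peaks and the grey band marks 250 bp on either side. The summits of eIF2Bbeta, eIF4E7, eIF1 and eIF2beta that belong to the IDR list stand left of the band.

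The replicates differed in how many initiation factor genes they marked. Within 250 bp, replicate 1 had a summit at 8 of the 44 genes (18.2%), replicate 2 at 9 (20.5%) and replicate 3 at 16 (36.4%), a mean of 25.0% ± 9.91 (SD, n = 3). Over all protein-coding genes the shares were 27.4%, 30.5% and 32.8% (30.2% ± 2.73). Replicate 3 had the most in both. Within the same list, the initiation factor genes had the lower share in replicates 1 and 2 and the higher share in replicate 3. The mean over all genes lay within 1 SD of that of the initiation factor genes, an SD that comes mostly from replicate 3. Among the 5400 strongest peaks of each replicate, 4, 5 and 6 genes had a summit within 250 bp (11.4% ± 2.27), against 12.4% ± 1.08 of all protein-coding genes.

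In at least 1 whole replicate list, 18 of the 44 genes had a summit within 250 bp (40.9%), against 42.3% of all protein-coding genes. In the whole lists of all 3 replicates there were 4 genes, eIF3a, eIF3h, eIF4A and eIF6 (9.09%, 3.59% to 21.2%), against 19.5%. Among the 5400 strongest peaks of all 3 replicates there were 3, eIF3h, eIF4A and eIF6 (6.82%, 2.35% to 18.2%), against 8.54%. Of the 18 genes, 7 had a summit in 1 replicate and 7 in 2. Replicate 3 alone marked 6 of them, eIF2A, eIF2alpha, eIF3d1, eIF4E6, eIF4E7 and eIF4H1, while replicate 1 alone marked eIF3k. Shares of all protein-coding genes were not computed for these splits by replicate. Replicate 3 also had the largest share over all protein-coding genes (32.8%), so these splits are not read as a trait of the initiation factor genes.

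For 7 genes only replicate lists held summits within 1000 bp, with at least 1 of them within 250 bp. Those with a summit within 250 bp were eIF2A, eIF2alpha, eIF3d1, eIF4E6 and eIF4H1 in 1 replicate each, and eIF4G2 and eIF5B in replicates 2 and 3. Their 12 summits within 250 bp ranked from 6336 to 27458, with a median of 15182, so none of these was among the 5400 strongest of its list. Further out there were 2 more, of eIF4G2 at +747 bp in replicate 2 (signal value 82.7), whose rank of 4545 was among the 5400 strongest, and of eIF2alpha at +490 bp in replicate 3 (15.5, rank 27473). A further 5 genes, eIF2Bdelta, eIF3c, eIF3d2, eIF3l and eIF5, had replicate summits beyond 250 bp and within 1000 bp and in no other list, the strongest in each replicate at ranks from 6314 to 29355. The shares of all protein-coding genes with summits in replicate lists only were not computed, so the counts of 7 and 5 genes have no background. eIF2alpha is the subunit whose phosphorylation slows initiation, and eIF5 makes eIF2 cleave its GTP at the start codon.

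By role, no group held more than 1 bound gene, and with 12.0% of all protein-coding genes bound the groups are too small to be read against that share. The cap-binding family had 1 bound gene of 7 (eIF4EHP), the group of eIF4A, eIF4B, eIF4G and eIF4H had 1 of 6, eIF3 had 1 of 16, and the group of eIF5, eIF5B and eIF6 had 1 of 3. None of the 3 eIF2 subunits, of the 5 eIF2B subunits, of eIF1 and eIF1A, or of eIF2A and eIF2D was bound. Of the 16 eIF3 genes, the largest group, 9 had no summit within 1000 bp in any list, against 41.3% of all protein-coding genes. That difference was not tested. The 19 genes without one were eIF1A, eIF2Balpha, eIF2Bepsilon, eIF2Bgamma, eIF2gamma, eIF3b, eIF3e, eIF3f1, eIF3f2, eIF3g1, eIF3g2, eIF3i, eIF3j, eIF3m, eIF4B, eIF4E3, eIF4E5, eIF4G1 and eIF4H2. They include eIF4G1, the scaffold that joins cap-binding protein, helicase and eIF3, and eIF2gamma, the subunit of eIF2 that binds GTP.

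Bound and unbound partners of the same complex stood side by side. eIF4A was bound at rank 378, while eIF4G1 had no summit within 1000 bp, eIF4E1 had one of rank 11429, and eIF4B, which stimulates the helicase, had none. eIF4EHP was bound at rank 481, and of the other 6 genes of its family none was. The nearest IDR summit to eIF4B, at the base of arm 3L (27842669 to 27858271), was 4912933 bp away, the longest distance of the 44. The median distance from a TSS to the nearest IDR summit was 12868 bp for the initiation factor genes (quartiles 4401 and 35493 bp) and 9707 bp for all protein-coding genes (quartiles 2500 and 23486 bp).

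eIF5B, the GTPase of subunit joining, had IDR peaks far inside the gene and none at its start sites. The gene spans 32320 bp on arm 3L, and its introns hold IDR summits 27742 bp from its nearest TSS (signal value 554, rank 1307) and 29176 bp from it (250, rank 3576). The nearest protein-coding TSS to both was that of sty, at 7926 and 6492 bp, which encodes the signalling inhibitor Sprouty. The bodies of eIF3h, eIF4A, eIF4EHP and eIF5B were the only ones of the 44 to hold an IDR summit. The share of all protein-coding genes with an IDR summit in the body was not computed, so this count has no background.

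The promoter layout of the genes was compared with that of all protein-coding genes, without a test. A single TSS is annotated for 29 of the 44 genes (65.9%), against 73.5% of all protein-coding genes. A protein-coding gene starts within 500 bp on the opposite strand for 18 of the 44 (40.9%), against 27.8%. Of the 4 bound genes, 2 were among the 18, eIF3h and eIF4EHP. Over all protein-coding genes, 624 of the 1675 bound genes had such a neighbour. Median GC content within 250 bp of the TSSs was 41.2% for the initiation factor genes and 41.5% for all protein-coding genes. By arm, 2 of 3 genes on 2L, 1 of 9 on 2R and 1 of 13 on 3R were bound, where 13.0%, 11.5% and 11.0% of all protein-coding genes of the arm were. None of 11 on 3L or of 7 on X was bound, where 13.1% and 11.7% of all protein-coding genes were, nor was eIF4G1, the single gene on chromosome 4 (7.50%).

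The 8-letter site of DREF, a factor of housekeeping promoters in Drosophila, was found within 250 bp of a TSS of 13 initiation factor genes (29.5%), against 10.5% of all protein-coding genes, and 2 of the 13, eIF4A and eIF6, were bound. In eIF4A it begins 52 bp upstream of the first TSS, which is the start site with the weak peak and not the one with the IDR summits, and in eIF6 it begins 11 bp upstream. The sites of 5 genes are shown because they share these letters while the start sites beside them have a weak pooled peak, as in eIF4A and eIF3a, or no peak within 1000 bp in any list.

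The TATCGATA match nearest to a TSS is printed in capitals with the 11 bases on either side, in the direction of transcription, from the reference of genome release 6. The stretches are eIF4A at chr2L:5981701-5981730 (+ strand), eIF3a at chr3R:4433915-4433944 (- strand), eIF2gamma at chr3R:15263449-15263478 (- strand), eIF3f1 at chr3R:4714172-4714201 (- strand) and eIF4B at chr3L:27858272-27858301 (- strand).
eIF4A: ggcgatcgatcTATCGATAgtcgctaatgt
eIF3a: tcggcctgaacTATCGATAacgcagccagg
eIF2gamma: gattagagcacTATCGATAggcattgtcgg
eIF3f1: cccacccgcacTATCGATAggcccttttct
eIF4B: cccgaaataaaTATCGATAacgatatagga
In eIF3a the match begins 38 bp upstream of the TSS and 4 bp downstream of the summit of its pooled peak of rank 5467. In eIF2gamma, eIF3f1 and eIF4B it begins 9, 8 and 19 bp upstream of a TSS, and no list has a summit within 1000 bp of these genes. The same letters were in 0.704% of the 150-base stretches at IDR summits and in 0.585% of those at the weaker pooled summits. The other 8 genes with the match were eIF1A, eIF2A, eIF2Bbeta, eIF2alpha, eIF3c, eIF3l, eIF4E6 and eIF6.

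The other motifs sought within 250 bp of a TSS on both strands were found at shares closer to the background. GAGAGAG, the site of the GAGA factor, was in 5 of 44 promoters (11.4%, against 10.9% of all protein-coding genes), and TATAAA in 23 (52.3%, against 59.9%). Of the E-box forms, CACGTG was in 5 (11.4%, against 8.63%), among them eIF6 and the first TSS of eIF4A, and CAGCTG in 11 (25.0%, against 31.1%). The core promoter element known as Motif 1 was in 4 (9.09%, against 5.03%), none of them bound. On the sense strand within 10 bp of a TSS, TCTTT, a form of the TCT initiator of ribosomal protein genes, was in 5 (11.4%, against 3.38%), 1 of them the bound gene eIF4A, again at its first TSS and not at the TSS with the IDR summits, and the initiator form TCAGT was in 1, eIF2gamma (2.27%, against 16.6%). No test was made of these shares, and matches of different motifs were counted apart and may overlap. The TCTTT matches began at -9 bp in eIF3d1, +6 bp in eIF3g1, +4 bp in eIF3i, -5 bp in eIF3m and +3 bp in eIF4A. The TCAGT match of eIF2gamma began at -2 bp from its inner TSS, at 15262937. These matches describe the letters within 10 bp of an annotated TSS and do not show an initiator in use.

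Partners and regulators of initiation were followed as a list of 30 symbols, of which 28 matched a protein-coding gene. Of these 28, 5 were bound (17.9%, Wilson 95% interval 7.88% to 35.6%), against 12.0% of all protein-coding genes, which lies inside that interval. Thor, the 4E-BP that blocks eIF4E from binding eIF4G, had a summit at -42 bp with a signal value of 518 (rank 1424), and replicate signal values of 219, 186 and 121 at ranks 1332, 1544 and 1631. Rack1, a protein of the small ribosomal subunit, had one at +1 bp with a signal value of 508 (rank 1462), and replicate signal values of 189, 180 and 134 at ranks 1622, 1617 and 1429. Both were bound in all 3 replicates at like ranks, and both ranked below eIF4A, eIF6 and eIF4EHP.

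The other bound partners were weaker. Lk6, a kinase of eIF4E, had a signal value of 371 (rank 2151, +151 bp), with replicate ranks of 2454, 1686 and 3863. larp, an RNA-binding protein of the La-related family, had one of 366 (rank 2189, -77 bp), with replicate ranks of 2307, 2977 and 1982. kra, a relative of eIF5, had one of 200 (rank 4801, -179 bp), with replicate ranks of 5264, 5193 and 6439, at a summit shared with SecS. Gcn2, a kinase of eIF2alpha, missed the window and not the IDR list. Its IDR summit stood at -256 bp with a signal value of 497 (rank 1512), and at -219, -262 and -244 bp in replicates 1, 2 and 3, at ranks 1747, 1750 and 1272. Within 250 bp its pooled summit at -57 bp had a signal value of 180 (rank 5477). Thor was bound and its target eIF4E1 was not, and neither Gcn2 nor its target eIF2alpha was bound at the 250 bp window.

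The initiation factor genes were set beside 2 other gene groups of translation. The bound share was 9.09% for the initiation factor genes (3.59% to 21.2%), 63.0% for 92 cytosolic ribosomal protein genes, of which 58 were bound (Wilson 95% interval 52.8% to 72.2%), and 12.1% for 33 aminoacyl-tRNA synthetase genes, of which 4 were bound (4.82% to 27.3%). The interval of the initiation factor genes lay apart from that of the ribosomal protein genes and overlapped that of the synthetases, and the differences were not tested. The 4 bound initiation factor genes had a median rank of 450, against 1758 for the bound ribosomal protein genes and 2984 for the bound synthetase genes. In replicates 1, 2 and 3, 9.09%, 11.4% and 13.6% of the initiation factor genes had a summit within 250 bp among the 5400 strongest peaks, against 57.6%, 64.1% and 67.4% of the ribosomal protein genes. In each replicate the initiation factor genes thus had the lower share.

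**Figure D4:**
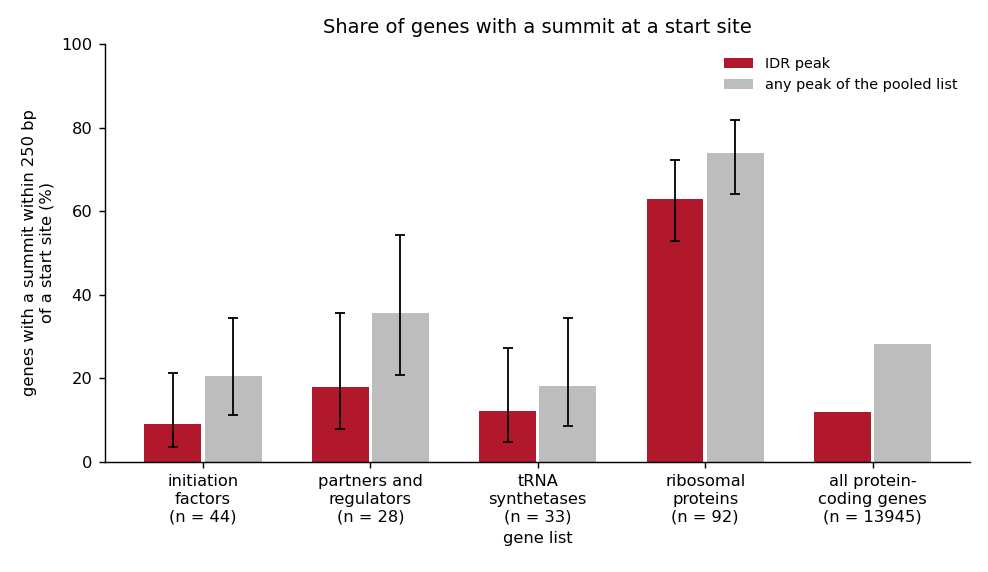
Share of genes with a summit within 250 bp of a start site (y axis, %), for the initiation factor genes, for 3 other gene lists and for all protein-coding genes. Red bars count IDR peaks and grey bars any peak of the pooled list, and error bars are Wilson 95% intervals, which cover counting error only. The initiation factor genes stand at 9.09% and 20.5%, and the ribosomal protein genes at 63.0% and 73.9%.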

How the data were processed

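ChIP-seq peaks of 3 biological replicates of embryos with eGFP-tagged CG5180 were used, on genome build dm6. The notes deposited beside each library state that the authors derived each replicate list from that replicate's alignments, the pooled list from all 3, and the IDR list from these lists. The deposited signal value is a score of no fixed range. The authors also deposited a −log10 q-value per peak, which was 2.57 at both sides of the IDR threshold. Which aligner, caller and IDR threshold were used is not given in the sources used here. Read depth is unknown, and Wilson 95% intervals cover counting error only.

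Gene models came from Ensembl release 115 and bases from genome release 6, and peaks were ranked by signal value. Peaks of a list count for every gene with a TSS within 250 or 1000 bp of the summit, so neighbours can share a peak. The rule for the 44 members uses gene symbols only, but it, the lists, the motifs and the rule for named genes were chosen with earlier results of these data known. That rule names each initiation factor gene with an IDR summit within 1000 bp, the 6 strongest in the pooled list without one within 250 bp, genes sharing those summits, and bound partners. eIF4E4 falls under its class, and eIF5B, Syx1A, sty and Gcn2 were named after their values were seen. Replicate spread is the SD over the 3 replicates, and with 1 group no test compares samples. Leaving out a replicate kept IDR peaks matched among the 5400 strongest of the remaining replicates, and pooled peaks matched in their whole lists. Window, TSS set, overlap rule and peak number were varied too. On 200 planted summits the calls were 100% right, checked on 13945 genes. Python 3.11.15, numpy 2.4.6, scipy 1.17.1 and matplotlib 3.10.9 were used.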

Additional observations from a re-analysis of the deposited data

How the results depend on the processing

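The window moved most counts. Within 100 bp, 2 initiation factor genes were bound, and within 1000 bp 8 were, while all protein-coding genes stood at 6.55% and 18.1%. Within 100 bp the pooled count of initiation factor genes was 5, and 6 genes had a summit within 1000 bp among the strongest peaks of every replicate. Shares of all protein-coding genes were not computed for these counts. With the gene's outermost 5′ end as the only TSS, 2 initiation factor genes were bound, eIF4EHP and eIF6, against 9.57% of all protein-coding genes. The peaks of eIF4A and eIF3h lie at internal start sites. With the strongest 2700 IDR peaks, 7.21% of all protein-coding genes and 2 synthetase genes were bound. The bound partners were 3 within 100 bp and 9 within 1000 bp, and 1 synthetase gene was bound within 100 bp. Counting each summit for 1 gene, that with the nearest protein-coding TSS, was added after the data were seen. It left 3 initiation factor genes bound, eIF3h, eIF4A and eIF6, against 10.6% of all protein-coding genes. Within 1000 bp it left 5, without eIF1, eIF2Bbeta and eIF4EHP, and the share of all protein-coding genes was not computed there.

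Leaving out 1 replicate left 4 initiation factor genes bound each time, and they were the same genes. This setting filters the lists made from all 3 replicates, so it can remove genes and cannot add any. The bound share of all protein-coding genes was 9.75%, 9.54% and 9.52% without replicates 1, 2 and 3, near the 9.09% of the initiation factor genes. Pooled counts of initiation factor genes then ran from 6 to 7 within 250 bp, and bound synthetase genes from 2 to 4, with 2 without replicate 1 or 3. For the pooled counts the share of all protein-coding genes was not computed with a replicate left out. The signal value of eIF3h became 389 and that of eIF2beta 195 at the 1000 bp window. No paired analysis was possible because the series has 1 group. Unknown depth, pooled stages and the lack of an untagged control limit all counts, and a gene without a summit may have signal below the end of a list of 30000 peaks.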
